A study of Caenorhabditis elegans with 6 samples.

Results

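Metal-handling genes of *Caenorhabditis elegans* were followed in whole day 1 adults, in 3 libraries of WT worms and 3 with the label *fmo-4* OE. The genes were the metallothioneins *mtl-1* and *mtl-2*, the cadmium-responsive gene *cdr-1*, the ferritins *ftn-1* and *ftn-2*, and the NRAMP-type metal importers *smf-1*, *smf-2* and *smf-3*. They were picked by name, not by a measured value, with earlier results of these data known, and all 8 were present among the 20138 genes of the table. The study raised the flavin-containing monooxygenase gene *fmo-4*, which it examined for effects on lifespan and stress resistance, and sequenced poly-T-selected messenger RNA to compare transcript levels with WT. Both groups were untreated and were grown from egg on NGM plates with concentrated OP50 *E. coli*. The labels do not say which of the study's overexpression strains was sequenced. One carried *fmo-4* under the ubiquitous *eft-3* promoter and the other under the hypodermal *dpy-7* promoter, both as multicopy arrays integrated at random, so an insertion effect cannot be told apart from an effect of *fmo-4*. The labels call the 3 libraries of each group biological replicates.

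Metallothioneins are small cysteine-rich proteins that bind zinc, copper and cadmium, and worms raise them in the intestine when these metals are in excess. CDR-1 is a membrane protein of intestinal lysosomes that is known for its strong induction by cadmium. Ferritin stores iron in a protein shell: *ftn-1* is a largely intestinal gene that responds to iron, whereas *ftn-2* is expressed more widely and more steadily. The SMF proteins bring manganese, iron and other divalent metals into cells and belong to the same family as the mammalian divalent metal transporters. No sequence of these genes was analysed here.

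Library totals ranged from 17576872 to 24943501 reads, and 16991 to 18062 genes had at least 1 read. *fmo-4* itself (F53F4.5) gave 522, 397 and 525 reads across WT replicates 1 to 3, against 372, 476 and 368 in the *fmo-4* OE-labelled libraries. After scaling for library size these were 480 ± 42.8 normalised reads in WT and 407 ± 49.8 in the *fmo-4* OE-labelled libraries (SD, n = 3 each). The labelled overexpression libraries were the lower ones, with a log2 fold change of -0.24 (95% interval -0.65 to 0.18, adjusted p = 0.947, edgeR quasi-likelihood test). The 2 groups did not overlap, but only narrowly, with 445.9 normalised reads in *fmo-4* OE replicate 2 against 448.5 in WT replicate 2. Of all genes tested, 11.1% did not overlap. The paper reported raised *fmo-4* by quantitative PCR in both overexpression strains. The targeted gene therefore goes against the label, and every direction below is that of the libraries as labelled. The libraries also differed in a way that cut across the groups. Genes with a deposited length under 500 bases took 2.60% and 2.68% of reads in WT replicates 1 and 2 and 2.62% in the *fmo-4* OE replicate 1, but 4.48% in WT replicate 3 and 4.33% and 4.05% in *fmo-4* OE replicates 2 and 3. Markers of intestine, hypodermis, muscle, neurons, germline, sperm and somatic gonad were all present, as the label whole body implies. In such bulk RNA, fewer cells of a type and less RNA per cell cannot be told apart.

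None of the metal genes differed between the groups beyond the spread of the libraries. Of the 8 genes, 6 had enough reads to be tested (*mtl-2*, *cdr-1*, *ftn-1*, *ftn-2*, *smf-1* and *smf-3*), and *mtl-1* and *smf-2* did not pass the filter on low counts. At an adjusted p under 0.05, edgeR's quasi-likelihood test called 0 of the 6, where 0.0447% of all 13413 genes tested were called. At an unadjusted p under 0.05 the count was again 0 of 6, where 7.34% of all genes tested passed. The Wald test of DESeq2 called 0 of the 6 at an adjusted p under 0.05 as well, where it called 125 genes over the whole table. All 6 overlapped between the groups in their normalised reads, while 11.1% of all genes tested did not overlap. The median log2 fold change of the 6 was -0.04, beside -0.02 over all genes tested. With so few genes and a background of this size, these counts do not set the metal genes apart from the rest. What the libraries could resolve differed by gene, from an interval of 0.772 to 1.29-fold for *ftn-2* to one of 0.247 to 2.00-fold for *ftn-1*.

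**Figure D1:**
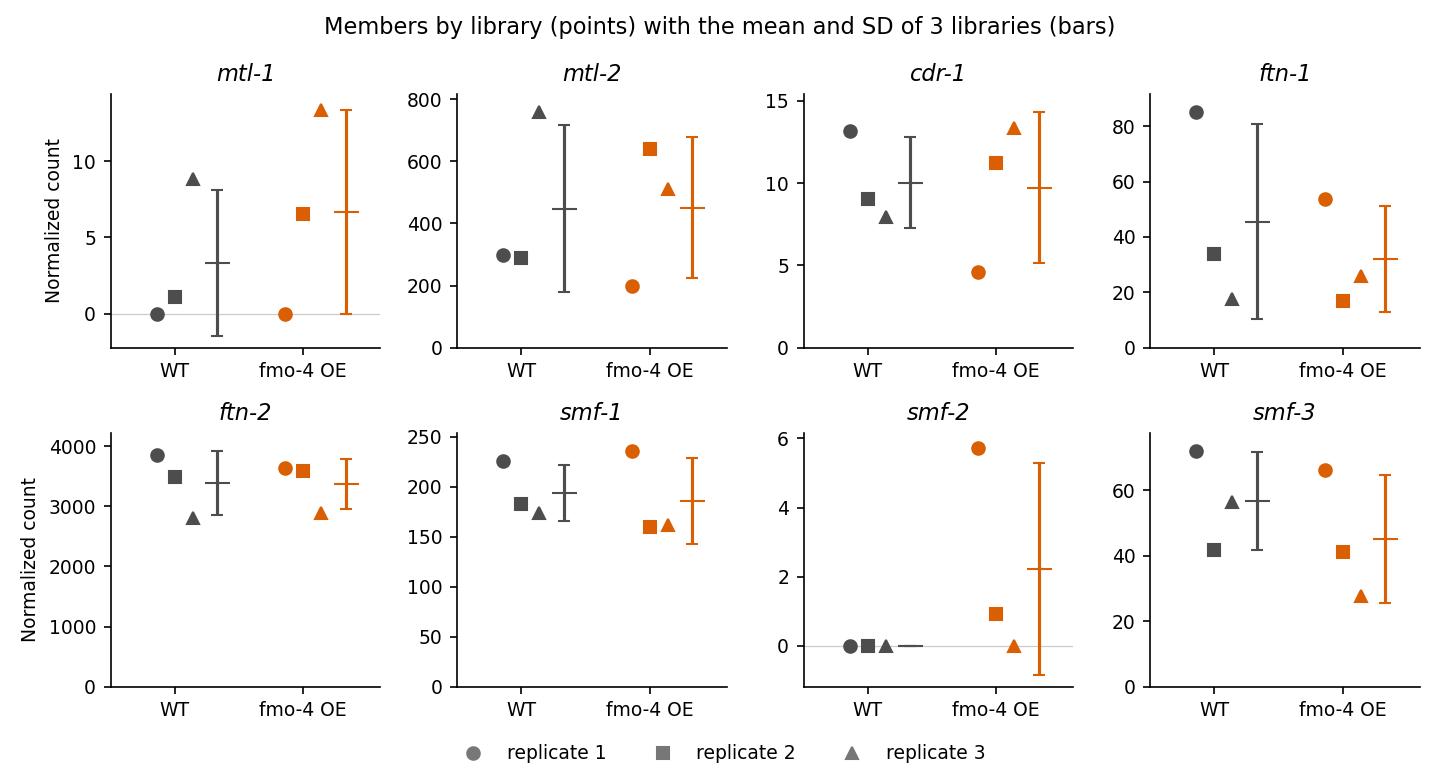
Each panel plots the normalised read count (vertical axis) of 1 metal gene in the 3 WT libraries (grey) and the 3 *fmo-4* OE-labelled libraries (orange), with symbols for the replicate number and a bar for mean ± SD. *mtl-2* and *mtl-1* had their high values in replicate 3 of WT and in replicates 2 and 3 of *fmo-4* OE, while *ftn-1* was highest in replicate 1 of both groups.

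Per unit of gene length the metal genes spanned more than 3 orders of magnitude, with *ftn-2* and *mtl-2* at the head in every library. *ftn-2* was the highest at 241 ± 43.2 FPKM in WT and 241 ± 28.8 in the *fmo-4* OE-labelled libraries (SD, n = 3 each), above 97.9% of the genes in the table by its median. *mtl-2* followed at 67.3 ± 38.9 FPKM in WT and 68.1 ± 33.9 in *fmo-4* OE, above 89.0% of genes. These levels put the main ferritin and the main metallothionein among the abundant transcripts of the worm, and *ftn-2* stayed above *mtl-2* in 6 of 6 libraries, its lowest value of 195 FPKM lying above the highest *mtl-2* value of 112. *smf-1* stood at 5.03 FPKM in WT and 4.83 in *fmo-4* OE, below *mtl-2* in 6 of 6 libraries. *ftn-1* stood at 3.34 and 2.35 FPKM and *smf-3* at 1.47 and 1.17. The order of *smf-1*, *ftn-1* and *smf-3* was less firm, since each stood above the next in 5 of 6 libraries. At the bottom, *mtl-1* had 0.413 and 0.846 FPKM, *cdr-1* 0.537 and 0.518, and *smf-2* 0 and 0.0649. *mtl-1* was above *cdr-1* in only 3 of 6 libraries, so these neighbours could not be ordered.

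**Figure D2:**
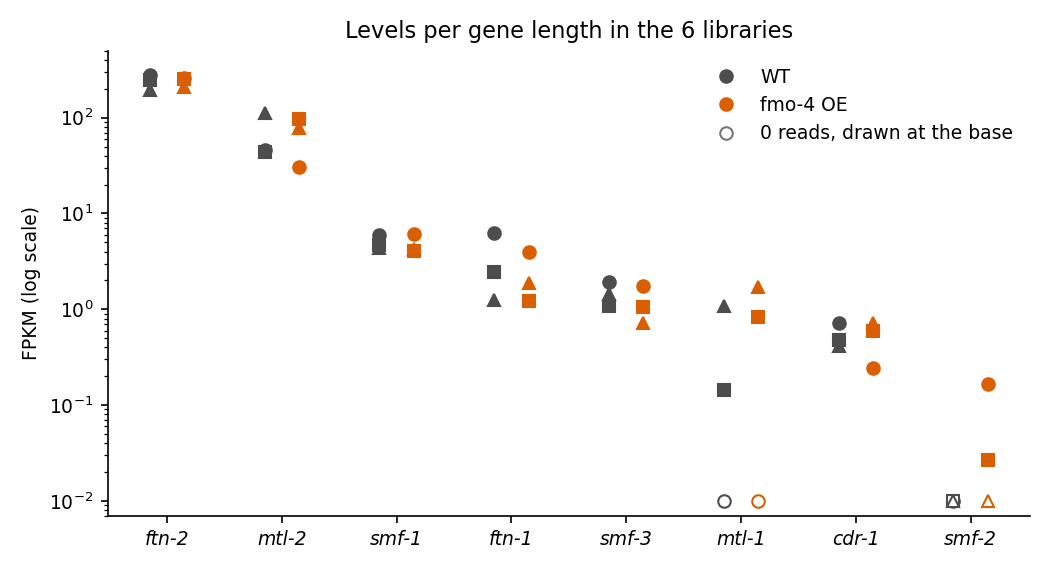
FPKM on a log scale for the 8 metal genes, ordered by their mean, with WT in grey and the *fmo-4* OE-labelled libraries in orange; circles, squares and triangles are replicates 1, 2 and 3, and open symbols are libraries with 0 reads. *ftn-2* and *mtl-2* stand apart from the rest, and the groups overlap for every gene.

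Metallothionein RNA was almost wholly that of *mtl-2*. *mtl-2* (T08G5.10) lies at 14018272 to 14018643 on the minus strand of chromosome V in the deposited coordinates, whose genome build is not given in the sources used here, with a deposited length of 315 bases. The reads numbered 294, 255 and 861 across WT replicates 1 to 3 and 174, 684 and 535 in the *fmo-4* OE-labelled libraries. Replicate 3 of WT and replicates 2 and 3 of *fmo-4* OE were high, the other 3 libraries were low, and the groups overlapped fully. After scaling, *mtl-2* had 448 ± 268 normalised reads in WT and 450 ± 227 in *fmo-4* OE (SD, n = 3 each). Its log2 fold change was 0.01 (SE 0.53, 95% interval -1.24 to 1.253, adjusted p = 0.999). That interval runs from 0.424-fold to 2.38-fold, so a change of about 2-fold in either direction would not have been detectable.

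The spread of *mtl-2* within a group was far larger than counting error. Its SD of 268 normalised reads in WT compares with 21.2 from counting alone. The highest library held 2.63 times the lowest in WT, 3.22 times in *fmo-4* OE and 3.81 times over all 6 libraries. The coefficient of variation over all 6 libraries, 49.5%, was higher than that of 93.6% of the 1588 genes of like level.

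*mtl-1* (K11G9.6, chromosome V, 6691369 to 6691863 on the minus strand, 375 bases), the metallothionein that is known as a target of the DAF-16 transcription factor, was barely detected. WT held 0, 1 and 10 reads of it, and 0, 7 and 14 were found in the *fmo-4* OE-labelled libraries. All but 1 of these reads came from the 3 libraries in which *mtl-2* was also high, and the sums of 11 and 21 reads did not allow a test after the filter. Without the filter, the log2 fold change reached 1.00 (SE 1.31) with an unadjusted p of 0.463 in edgeR's quasi-likelihood test. As a share of all metallothionein reads, *mtl-1* made up 1.15% in WT replicate 3 (exact Clopper-Pearson 95% interval 0.552% to 2.101%), 1.01% in *fmo-4* OE replicate 2 (0.408% to 2.08%) and 2.55% in *fmo-4* OE replicate 3 (1.40% to 4.24%). In WT replicate 1 it was 0 of 294 reads, which allows a share of up to 1.02%, and in *fmo-4* OE replicate 1 it was 0 of 174, which allows up to 1.72%. WT replicate 2 held 1 of 256 reads, or 0.391% (0.00989% to 2.16%). Over all 6 libraries the share was 1.13%, just above the limit in WT replicate 1, whose exact interval reaches 1.247%, and below that in *fmo-4* OE replicate 1. These intervals and limits cover counting error only. Per gene length, *mtl-2* was 102 times *mtl-1* in WT replicate 3 and 116 and 45.5 times in *fmo-4* OE replicates 2 and 3, and no test of this ratio is given because libraries with 0 *mtl-1* reads set only a lower bound.

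The libraries with much *mtl-2* were those with much RNA from short genes. Among 158 other genes with a deposited length of 250 to 400 bases and a mean of at least 50 normalised reads, the median log2 level relative to each gene's own mean was -0.61, -0.61 and 0.74 across WT replicates 1 to 3 and -0.72, 0.65 and 0.53 in the *fmo-4* OE-labelled libraries. *mtl-2* stood at -0.43, -0.48 and 0.91 in WT and at -1.01, 0.67 and 0.34 in *fmo-4* OE on the same scale. In 4 of the 6 libraries 54.4% to 59.5% of the short genes lay below *mtl-2*, and in *fmo-4* OE replicates 1 and 3 31.7% and 36.1% did. Genes of 1000 bases or more, 7286 in number, had medians between -0.06 and 0.06 in every library.

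When the share of reads on short genes was added to the fit as a covariate, the log2 fold change of *mtl-2* moved from 0.01 to -0.36 with a standard error of 0.15 (95% interval -0.71 to -0.02). Its unadjusted p was then 0.0409 and its adjusted p 0.517, so it was still not called over all genes. Among the 3 libraries rich in short genes, *mtl-2* had 758 normalised reads in WT and 641 and 511 in *fmo-4* OE. Among the other 3 it had 298 and 288 in WT and 199 in *fmo-4* OE, so the WT values were the higher ones within each set, with too few libraries for a test. Leaving out WT replicate 3 moved the value the other way, to a log2 fold change of 0.62, and leaving out *fmo-4* OE replicate 2 moved it to -0.34.

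The cuticle collagen *col-19* moved with *mtl-2*, with 9116, 10242 and 33664 reads in WT against 7583, 24172 and 23886 in *fmo-4* OE, and not all hypodermal markers did. The cuticle gene *dpy-7* had only 29.9 normalised reads in WT replicate 3, against 162 in WT replicate 2, *wrt-2* was at 0 there, and *elt-3* was lower there than in WT replicates 1 and 2. Over the 6 hypodermal and cuticle markers the summed level, mostly *col-19*, was 464, 586 and 1451 CPM in WT and 439, 1132 and 1151 CPM in the *fmo-4* OE-labelled libraries. Of these markers 2 were at 0 in some library, *rol-6* in WT replicate 2 and *fmo-4* OE replicate 1 and *wrt-2* in WT replicates 1 and 3. The 8 intestinal markers, none at 0 and the sum mostly *vit-2* and *vit-6*, summed to 27420, 31110 and 36190 CPM in WT. In *fmo-4* OE they summed to 22100, 29460 and 29560 CPM. Of these, *act-5* also moved with *mtl-2*, with 5535, 6302 and 13666 reads in WT and 4614, 12021 and 10107 in *fmo-4* OE. Not all intestinal markers did, since *ges-1* had 392, 386 and 376 normalised reads in *fmo-4* OE. The part of the weight of short genes or of tissue composition in the *mtl-2* values was not tested further.

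**Figure D3:**
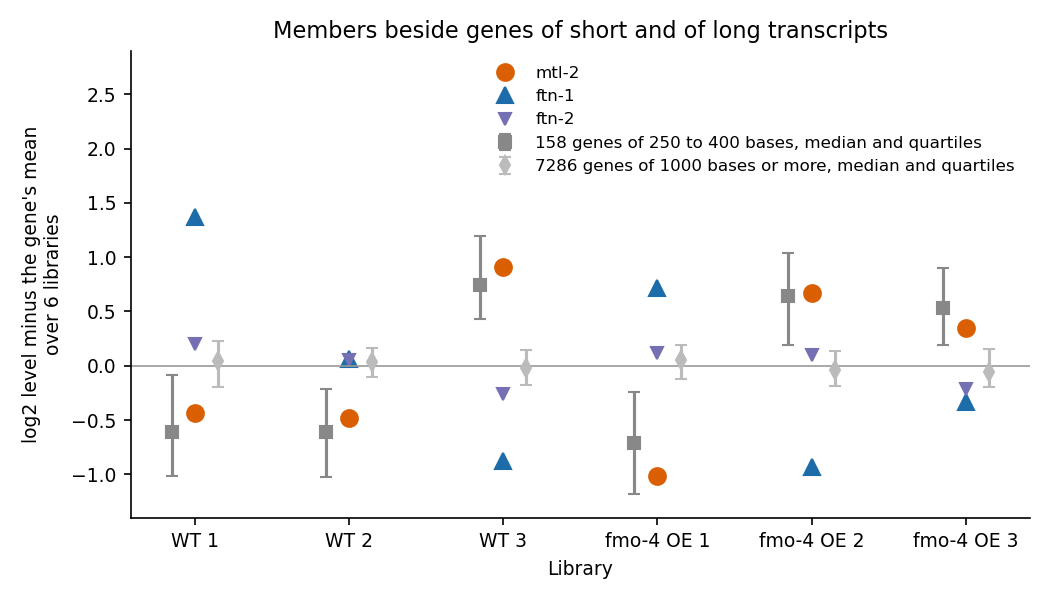
Log2 level minus the gene's own mean over the 6 libraries (vertical axis) for *mtl-2*, *ftn-1* and *ftn-2*, beside the median and quartiles of 158 genes of 250 to 400 bases and of 7286 genes of 1000 bases or more. *mtl-2* follows the short genes, up in replicate 3 of WT and in replicates 2 and 3 of *fmo-4* OE, whereas *ftn-1* takes its highest values, 1.37 and 0.71, in replicate 1 of each group.

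The cadmium-responsive gene *cdr-1* (F35E8.11, chromosome V, 15921361 to 15922820 on the plus strand, 896 bases) was low in every library. It had 13, 8 and 9 reads in the WT libraries and 4, 12 and 14 in the *fmo-4* OE-labelled libraries. Only *fmo-4* OE replicate 1 stood lower than the rest, and its exact Poisson 95% interval of 1.09 to 10.2 reads covers the reads of 2 of the 3 WT libraries. The normalised reads were 10.04 ± 2.76 in WT and 9.72 ± 4.59 in *fmo-4* OE (SD, n = 3 each), where counting alone gives an SD of 3.17 and 3.12. Its log2 fold change was -0.03 (SE 0.55, 95% interval -1.303 to 1.248, adjusted p = 0.994). At this depth the variation of *cdr-1* between WT libraries was no larger than sampling noise. In *fmo-4* OE the SD of 4.59 lay above the 3.12 from counting.

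The ferritins differed from each other far more than either did between groups. *ftn-2* (D1037.3, chromosome I, 3680178 to 3680944 on the minus strand, 670 bases) had 3805, 3086 and 3187 reads in the WT libraries and 3176, 3835 and 3031 in the *fmo-4* OE-labelled libraries. No library stood apart, and the means of 3381 ± 532 and 3372 ± 416 normalised reads (SD, n = 3 each) were nearly equal. The log2 fold change of -0.00 had a standard error of 0.16 (95% interval -0.37 to 0.37, adjusted p = 0.996), the narrowest interval among the metal genes.

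*ftn-1* (C54F6.14, chromosome V, 7545974 to 7548012 on the minus strand, 657 bases) had 84, 30 and 20 reads in the WT libraries and 47, 18 and 27 in the *fmo-4* OE-labelled libraries. WT replicate 1 was the highest and *fmo-4* OE replicate 1 the next, and the other 4 libraries lay between 16.9 and 33.9 normalised reads, with both groups intermixed. The means were 45.5 ± 35.2 in WT and 32.1 ± 19.2 in *fmo-4* OE (SD, n = 3 each), with a log2 fold change of -0.51 (SE 0.65, 95% interval -2.02 to 1.00, adjusted p = 0.956). The direction rested on 1 library, since without WT replicate 1 the log2 fold change was 0.31. *ftn-1* varied 5.04-fold between its highest and lowest library, and its coefficient of variation of 68.0% was above that of 86.9% of 1562 genes of like level.

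Per gene length *ftn-2* was 44.4 to 156 times *ftn-1* in WT and 66.3 to 209 times in the *fmo-4* OE-labelled libraries. Expressed as a percentage of *ftn-2*, *ftn-1* stood at 2.25%, 0.991% and 0.640% in WT and at 1.51%, 0.479% and 0.908% in *fmo-4* OE. Replicate 1 was the highest in each group, and the mean log2 ratio of *ftn-1* to *ftn-2* differed between groups by -0.37 (exact two-sided permutation p = 0.6, where 3 against 3 libraries allow no p under 0.1).

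Among the metal importers, *smf-1* and *smf-3* were measured in every library and *smf-2* was at the limit of detection. *smf-1* (K11G12.4, chromosome X, 6719669 to 6723068 on the minus strand, 1845 bases) had 223, 162 and 197 reads in the WT libraries and 206, 171 and 170 in the *fmo-4* OE-labelled libraries. Replicate 1 was the highest in both groups, and the ranges overlapped. The means were 194 ± 27.9 and 186 ± 42.9 normalised reads (SD, n = 3 each), with a log2 fold change of -0.06 (SE 0.24, 95% interval -0.63 to 0.50, adjusted p = 0.971).

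*smf-3* (Y69A2AR.4, chromosome IV, 2619875 to 2625505 on the plus strand, 1839 bases), the importer known for manganese uptake in the intestine, had 71, 37 and 64 reads in the WT libraries and 58, 44 and 29 in the *fmo-4* OE-labelled libraries. Its lowest value was in *fmo-4* OE replicate 3, yet *fmo-4* OE replicate 1 lay above 2 of the 3 WT libraries. The means were 56.7 ± 15.04 and 45.1 ± 19.6 normalised reads (SD, n = 3 each), with a log2 fold change of -0.34 (SE 0.40, 95% interval -1.26 to 0.59, adjusted p = 0.956). Its direction was kept with each library left out in turn, from -0.70 to -0.08. Per gene length, *smf-3* amounted to 22.9% to 32.6% of *smf-1* in WT and to 17.1% to 28.3% in *fmo-4* OE, a difference in mean log2 ratio of -0.31 (exact two-sided permutation p = 0.3). Adjusted over the 4 ratios planned, both this p and that of the ferritin ratio were 0.6, and the ratio of *smf-2* to *smf-1* is not given because *smf-2* had 0 reads in most libraries.

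*smf-2* (K11G12.3, chromosome X, 6716358 to 6718670 on the minus strand, 1641 bases) lies 998 bases downstream of *smf-1* on the same strand. It had 0 reads in each WT library and 5, 1 and 0 reads in the *fmo-4* OE-labelled libraries. A count of 0 in 1 library allows up to 3 reads. The 5 reads of *fmo-4* OE replicate 1 have an exact Poisson interval of 1.62 to 11.7. These limits hold for single libraries and do not compare the groups, and no fold is given. Without the filter, edgeR's quasi-likelihood test gave *smf-2* an unadjusted p of 0.0848 and an adjusted p of 0.836, so no difference was called. *smf-2* shares 37 bases with *nas-11* (K11G12.1) on the other strand, an astacin-type protease gene with 645 to 673 reads in WT and 373 to 443 in *fmo-4* OE. Whether strand was used in counting is not given in the sources used here, so reads on the shared bases cannot be assigned.

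**Figure D4:**
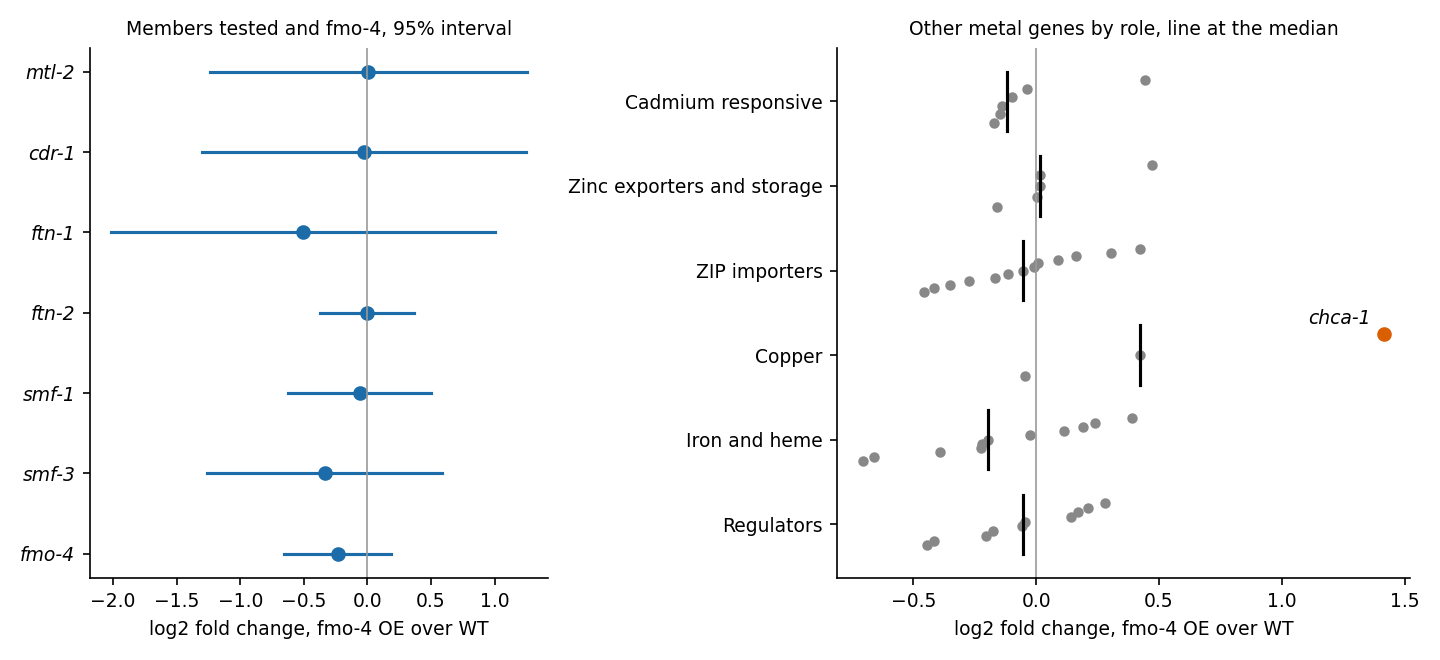
Left, log2 fold change of the *fmo-4* OE-labelled libraries over WT with its 95% interval for the 6 tested metal genes and *fmo-4*, every interval crossing 0. Right, log2 fold changes of 48 further metal genes by role, with a line at each median; the orange point is *chca-1* at 1.41, the gene past an unadjusted p of 0.05.

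Profiles like that of *mtl-2* were common, and few genes matched the low-count profile of *cdr-1*. The genes most like *mtl-2* over the 6 libraries were *trip-4* (Y53F4B.15, Pearson r of log2 CPM 0.997 over 6 libraries) and the ribosomal protein gene *rpl-31* (W09C5.6, r = 0.995). *rpl-31* had 12300, 11113 and 19858 reads in the WT libraries and 9761, 18325 and 16261 in the *fmo-4* OE-labelled libraries, with the same 3 libraries high. In all, 1010 of 10063 genes compared had an r above 0.9 with *mtl-2*. For *ftn-1*, whose likeness was highest to *teg-4* (r = 0.997) and *yif-1* (r = 0.996), 515 of 10064 genes passed the same value. *teg-4* (K02F2.3) had 3994, 2903 and 3309 reads in the WT libraries and 3167, 3131 and 3290 in *fmo-4* OE, so its changes had the shape of those of *ftn-1* and a much smaller size. *cdr-1* was followed by *cup-4* (r = 0.977) and Y15E3A.5 (r = 0.961), and only 12 of 10064 genes passed 0.9. With 4 to 14 reads per library, the profile of *cdr-1* may be mostly counting error. Its r values therefore do not show that its profile is a rare one. These r values describe 6 libraries that also differed in the weight of short genes. *trip-4* and *rpl-31*, with deposited lengths of 1344 and 638 bases, both lie above the length limit used here for short genes. Whether the weight of short genes accounts for the shared profiles was not tested.

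The other genes of metal handling were as little changed as a group, with *chca-1* as the exception in size. Of 56 further genes for cadmium, zinc, copper, iron and heme handling and their regulators, 53 were found and 48 were tested. At an unadjusted p under 0.05, 1 of them was raised and 0 were lowered in the *fmo-4* OE-labelled libraries, and edgeR's quasi-likelihood test called 0 of the 48 at an adjusted p under 0.05. The 1 gene is 2.08% of the list, below the 7.34% of all genes tested that passed the unadjusted p. The median log2 fold change was -0.05 (quartiles -0.20 and 0.16), beside -0.02 (quartiles -0.18 and 0.21) over all genes tested. By role the medians were -0.12 for 6 cadmium-responsive genes, 0.01 for 5 zinc exporters and storage genes, -0.05 for 13 ZIP-type zinc importers, 0.42 for 3 copper genes, -0.20 for 11 iron and heme genes and -0.05 for 10 regulators.

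*chca-1* (F58G6.9), which encodes a copper transporter of the intestine and hypodermis, had 116, 132 and 236 reads in the WT libraries and 373, 533 and 356 in the *fmo-4* OE-labelled libraries. Every *fmo-4* OE library lay above every WT library, and WT replicate 3 was the highest of the WT group. The means were 158 ± 45.8 and 422 ± 79.9 normalised reads (SD, n = 3 each), a 2.67-fold difference. Its log2 fold change was 1.41 (SE 0.27, 95% interval 0.79 to 2.04), unadjusted p = 0.000863 and adjusted p = 0.551 in edgeR's quasi-likelihood test, so it was not called. The Wald test of DESeq2 gave it an adjusted p of 0.000938 and called it, as 1 of 125 genes that this test called over the whole table. Among the 13413 genes tested, *chca-1* ranked at position 21 by p and at position 304 by log2 fold change. Its size thus stood out within the metal list and not over all genes. Its log2 fold change stayed between 1.23 and 1.66 with any library left out. Beside it, 2 of 6 hypodermal and cuticle markers were higher at an unadjusted p under 0.05 (list median log2 fold change 1.14). Of all genes tested, 7.34% passed that p in either direction. In this list *dpy-7* had 17.2, 162 and 29.9 normalised reads in WT and 133, 360 and 442 in *fmo-4* OE. *elt-3* had 325, 332 and 273 in WT and 222, 311 and 333 in *fmo-4* OE, and *col-19* also overlapped between the groups. Sperm markers were lower at the same p in 3 of 5 genes (median -1.62), and 1 of 5 neuronal markers was higher. No intestinal, muscle, germline or somatic gonad marker passed that p. The summed sperm markers stood at 38.5, 8.54 and 37.8 CPM in WT and at 6.43, 10.3 and 8.69 CPM in *fmo-4* OE. WT replicate 2 thus lay among the *fmo-4* OE libraries, and WT replicates 1 and 3 carried the sperm difference. The part of these marker differences in the *chca-1* difference was not tested.

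None of the other genes of this list passed an unadjusted p under 0.05. In 6 of the 48 genes, or 12.5%, the groups did not overlap, beside 11.1% of all genes tested. They were *chca-1*, *cdr-2*, *zipt-7.2* and *elt-7*, higher in *fmo-4* OE, and *fpn-1.2* and *frh-1*, lower, of which *zipt-7.2*, *elt-7* and *frh-1* are named after their values were seen. Among the relatives of *cdr-1* was *cdr-2*, with 107 ± 14.8 normalised reads in WT and 145 ± 16.9 in *fmo-4* OE (SD, n = 3 each), whose groups did not overlap and whose log2 fold change was 0.44 (adjusted p = 0.780). The zinc storage transporter gene *cdf-2*, which acts with the metallothioneins in zinc homeostasis, had a log2 fold change of 0.47 (adjusted p = 0.894), or 0.26 without WT replicate 1. At the other end stood the ferroportin-related iron exporter gene *fpn-1.2* at -0.70 (adjusted p = 0.714), with 52, 51 and 53 reads in WT against 38, 25 and 31 in *fmo-4* OE and no overlap. Next came the heme-responsive gene *hrg-2* at -0.66 and the ZIP importer gene *zipt-16* at -0.46 (both adjusted p = 0.956), each with overlapping groups. Single libraries moved both values, *hrg-2* from -1.14 without *fmo-4* OE replicate 2 to -0.30 without *fmo-4* OE replicate 3, and *zipt-16* from -0.83 without *fmo-4* OE replicate 1 to -0.20 without *fmo-4* OE replicate 3.

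Of the 10 regulators of metal genes, none passed an unadjusted p under 0.05. *hizr-1*, the zinc-sensing nuclear receptor that activates *mtl-1* and *cdf-2* in excess zinc, had 68.4 ± 5.44 normalised reads in WT and 51.5 ± 19.3 in the *fmo-4* OE-labelled libraries (SD, n = 3 each), with a log2 fold change of -0.41 (adjusted p = 0.953). Without *fmo-4* OE replicate 1 it was -0.73 and without *fmo-4* OE replicate 3 it was -0.21. *hif-1*, known for repressing *ftn-1* when iron is low, was nearly level at -0.06 (95% interval -0.31 to 0.19, adjusted p = 0.956). The intestinal GATA factor gene *elt-2*, known as an activator of metallothionein and ferritin genes, had 105, 137 and 205 reads in the WT libraries and 91, 230 and 227 in *fmo-4* OE. Its highest 3 libraries were those high in *mtl-2*, and its log2 fold change of 0.28 (adjusted p = 0.956) came with overlapping groups. It was 0.0432 with the short-gene covariate and between 0.08 and 0.57 with 1 library left out, lowest without WT replicate 1 and highest without *fmo-4* OE replicate 1.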

How the data were processed

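Whole day 1 adults were sequenced in 3 WT and 3 *fmo-4* OE libraries, grouped by the sample titles. The authors deposited whole-number read counts per gene without normalization, FPKM and a gene length in bases. FPKM was checked to be the count divided by the deposited length and by 1 total per library. Submitters' processing notes name fastp, HISAT2, StringTie and featureCounts. Versions, genome build, annotation and strand setting are not given in the sources used here. The table holds genes with at least 2 reads in total. The authors' size-factor-scaled signal, log2 fold changes, p-values and adjusted p-values, and 60 single-library columns not mapped to these samples, were set aside.

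Symbols were found for all but 313 genes. Counts were filtered with filterByExpr, which left 13413 genes, scaled by TMM (factors 0.941 to 1.03) and compared with the two-sided quasi-likelihood test of edgeR 4.0.16 (limma 3.58.1, R 4.3.3), with Benjamini-Hochberg adjustment over all genes tested. A normalised read count is the count over the effective library size, rescaled to the mean effective size. The biological coefficient of variation was 0.297, and library totals of 17576872 to 24943501 reads set the precision of each value. Scripts were tested on simulated data. Ratios within a library were compared with an exact permutation test.

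The genes, the metal list, the markers and the tests were chosen with earlier results of these data known. Named were the 8 genes, *fmo-4*, genes of the metal list with an unadjusted p under 0.05 or among its 3 highest or 3 lowest log2 fold changes, *hizr-1*, *elt-2*, *hif-1*, the 2 genes most like *mtl-2*, *cdr-1* and *ftn-1* in profile, and genes overlapping a metal gene. *nas-11* was named by that overlap. Alternatives were RLE factors, library size alone, DESeq2 1.42.0, no filter, 10 counts in every library, the replicate number as a block, the share of reads on genes under 500 bases as a covariate, and each library left out in turn.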

Additional observations from a re-analysis of the deposited data

How the results depend on the processing

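Of the metal genes tested, none reached an adjusted p under 0.05 in any alternative, and 1 (*mtl-2*) passed an unadjusted p under 0.05 with the short-gene covariate. Several had a log2 fold change so near 0 that its sign turned. *mtl-2* went from 0.01 to -0.00996 with the replicate block, to -0.36 with the covariate, and ranged from -0.34 to 0.62 over libraries left out. *cdr-1* was 0.0136 without the filter and ranged from -0.31 to 0.31. *ftn-1* ranged from -1.07 to 0.31 and was -0.04 with the covariate. *ftn-2* was 0.00124 with library size alone, 0.0285 without the filter, 0.0230 with 10 counts in every library, 0.000745 with the replicate block, 0.0750 with the covariate, and ranged from -0.13 to 0.10. *smf-1* was 0.0200 with the covariate and ranged from -0.25 to 0.0504. *smf-3*, *fmo-4* and *chca-1* kept their direction in every alternative. The difference in log2 ratio of *ftn-1* to *ftn-2*, -0.37, ranged from -0.77 to 0.12 over libraries left out, and turned to 0.12 when WT replicate 1 was dropped and to 0.05 when *fmo-4* OE replicate 2 was. The cause was not tested.

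The count of all genes called, 6, was 10 without the filter, 0 with 10 counts in every library, 14 with the covariate and 125 with DESeq2, and ranged from 0 to 131 over libraries left out. At an unadjusted p under 0.05, the 984 genes ranged from 502 to 1628 over libraries left out. Of the metal list, the 1 higher gene became 2 with 10 counts in every library, 2 with the replicate block and 3 with the covariate, and 1 to 2 over libraries left out. The 0 lower genes became 1 with the replicate block and 0 to 2 over libraries left out. The list's median stayed between -0.14 and 0.02. Deviations of same-numbered libraries correlated at 0.386, -0.294 and 0.332, and those of libraries with unlike numbers at -0.542 to 0.478. With the replicate block, 1261 genes passed an unadjusted p under 0.05. Whether the replicate number pairs the libraries cannot be told from these mixed values. DESeq2 gave no adjusted p for 6652 genes, *mtl-1* and *smf-2* among them, and *cdr-1* had no value with 10 counts in every library. Depth limits *mtl-1*, *cdr-1* and *smf-2*, whose reads were 14 or fewer in every library.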
